A study of Mus musculus with 57 samples.

Results

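The genes of the cytosolic ribosomal proteins, which build the ribosomes that translate nuclear messages, were followed through 57 single cells of the postnatal mouse kidney. Members were taken by symbol: every row named Rpl or Rps with a number, together with Rplp0, Rplp1, Rplp2 and Rpsa, without the Rps6k kinases and without predicted copies. This gave 78 of the 12087 genes in the table, 46 of the large and 32 of the small subunit. They were all 77 genes of the list of canonical subunit genes that carry such symbols, and 1 paralog, Rps27l.

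The cells came from kidneys at postnatal day 4 of mice carrying Tg(Crym-EGFP)82Gsat, a transgene that places EGFP under the control of Crym regulatory sequence, on a mixed background and of unknown sex (1 label gives both). All 57 cells belong to 1 pool of 2 kidneys; they were sorted by fluorescence as renal vesicle, the earliest epithelial form of a nephron, and each was captured and amplified singly on a Fluidigm C1 chip. There is no wild-type group, no treatment and no second pool, so SDs here are over cells, and differences between groups of cells are descriptions with no p-value. Levels are RPKM, reads per kilobase of gene model scaled to the mapped reads of the cell, and a gene was called detected at RPKM 1 or more.

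The labelled structure was set against marker genes. Of the cells, 50 had Pax8, an early nephron transcription factor, at RPKM 5 or more and C1qb, a macrophage complement gene, below 500, and are called nephron cells. A further 5 cells, numbered 1, 25, 35, 46 and 58 in the labels, had C1qb at 500 or more and went against the label. Their summed RPKM over 14 macrophage markers was 9838 to 20764, against 0 to 203 in the nephron cells, and over 10 nephron markers it was 10.8 to 79.9, against 241 to 2642. They are called macrophage-like, and the other 2 cells, low in both genes, are left unnamed. No nephron cell lay within 2-fold of either threshold. Depth, estimated from the steps between low RPKM values, had a median of 1.47 M reads and ran from 0.475 M in cell 30 to 2.29 M.

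A ribosome is assembled from a large and a small subunit, each a scaffold of ribosomal RNA bearing many small, mostly basic proteins that are needed in like molar amounts. The P-stalk of the large subunit, built of Rplp0, Rplp1 and Rplp2, recruits elongation factors, while Rpl5 and Rpl11 bind the 5S RNA and can restrain Mdm2, the negative regulator of p53, when assembly fails. Most messages of these proteins start with a terminal oligopyrimidine tract, a C followed by a run of pyrimidines, through which mTOR signalling controls their translation. The genes have left many processed pseudogenes in mammalian genomes, so short reads from them can match several places.

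Sequence near the start of these genes is shown first, since many of them, though not all, share features there that the choice by symbol did not use. RefSeq promoter windows of build GRCm38.p6 were matched for 57 of the 78 members. The 30 bases printed for each of 6 members hold its longest run of C or T near the annotated start, in capitals. Rps26 and Rpl14 had the highest mean correlation with the other members and Rps27l the lowest, and Rpl35, Rplp2 and Rpl28 show further runs. The 6 do not stand for all members: Rpl41, next after Rpl14 by that correlation, had a longest run of 4 and is not printed.
Rps26, chr10:128626492-128626521, minus strand: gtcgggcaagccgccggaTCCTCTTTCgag
Rpl14, chr9:120571502-120571531, plus strand: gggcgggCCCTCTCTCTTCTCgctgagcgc
Rpl35, chr2:39005117-39005146, minus strand: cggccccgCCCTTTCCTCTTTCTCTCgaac
Rplp2, chr7:141447636-141447665, plus strand: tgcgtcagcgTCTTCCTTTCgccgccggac
Rpl28, chr7:4792950-4792979, plus strand: ccgcctctcgtgTCTCTCTTTCCgtctccg
Rps27l, chr9:66946071-66946100, plus strand: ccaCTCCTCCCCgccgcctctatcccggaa

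A run of at least 7 C or T within 30 bases of the annotated start stood in 40 of the 57 matched members, or 70.2%, against 37.4% of 27025 genes with a window. Its share was 70.6% among large subunit members and 69.6% among small subunit members. The more specific letters CTCTTTC or CTTTCC, read on the forward strand in the same stretch, stood in 15 members (26.3%), against 4% of all genes. CCGGAAG, letters of the ETS family and GABP motif, was searched on both strands of the whole 300-base window and stood in 24 members (42.1%), against 9.93% of all genes. The Myc E-box letters CACGTG, on both strands, stood in 6 members (10.5%), near the 8.09% of all genes. TATAAA, on the forward strand within 50 bases before the start, stood in none of the 57 and in 3.15% of all genes. These are matches of letters in windows, and some of the letters overlap, since a CTCTTTC is itself a pyrimidine run.

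The ribosomal protein genes were at RPKM 1 or more in nearly every cell. Of the 78 members, 76 were detected in all 57 cells, where 2.53% of all genes were. The median over members of the median RPKM was 713, with quartiles of 466 and 993, while the median gene of the table was listed at 0. Of the members, 76 had a median above 81.7 RPKM, the 95th percentile of all genes. The exceptions in detection were Rpl19 and Rps9, large and small subunit proteins, which were both listed at 0 in cell 30 and detected in the other cells. Rpl19 had a median of 1159 RPKM and reached 2557, and Rps9 had a median of 623 and reached 1310.

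Levels between members spanned 42.0-fold. Rpl41, a very short peptide of the large subunit, ranged from 680 in cell 35 to 3766 in cell 44 with a median of 2111 RPKM. Rps14, a protein of the small subunit platform, ranged from 354 to 4308 around a median of 1938 RPKM. Rpl32 of the large subunit ranged from 475 to 4879 around 1882 RPKM. For these 3 genes the lowest cell was macrophage-like. Among the next by median were Rpl7 at 1829, Rplp0 at 1776, Rpl4 at 1650, Rpl13 at 1617, Rps3a at 1603 and Rpl9 at 1580 RPKM. The lowest value of Rpl7 was 29.3 RPKM, in cell 30. The 10 members with the highest means held 28.4% of the summed mean RPKM of the members.

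The lowest member was Rpl22, a large subunit protein that also binds other RNAs and that mice can live without. It ranged from 4.06 to 535 RPKM around a median of 50.3. Rps15a of the small subunit ranged from 2.46 to 305 around 59.3 RPKM, and Rps24, which is mutated in Diamond-Blackfan anaemia, from 4.46 to 614 around 111 RPKM. Above them were Rpl11 at 169, Rps12 at 179, Rps21 at 181, Rpl18 at 193, Rpl21 at 228, Rps27l at 233 and Rpl31 at 242 RPKM. All 10 of these were still detected in each of the 57 cells, and at a threshold of RPKM 5 the number of members detected in all cells was 68.

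**Figure D1:**
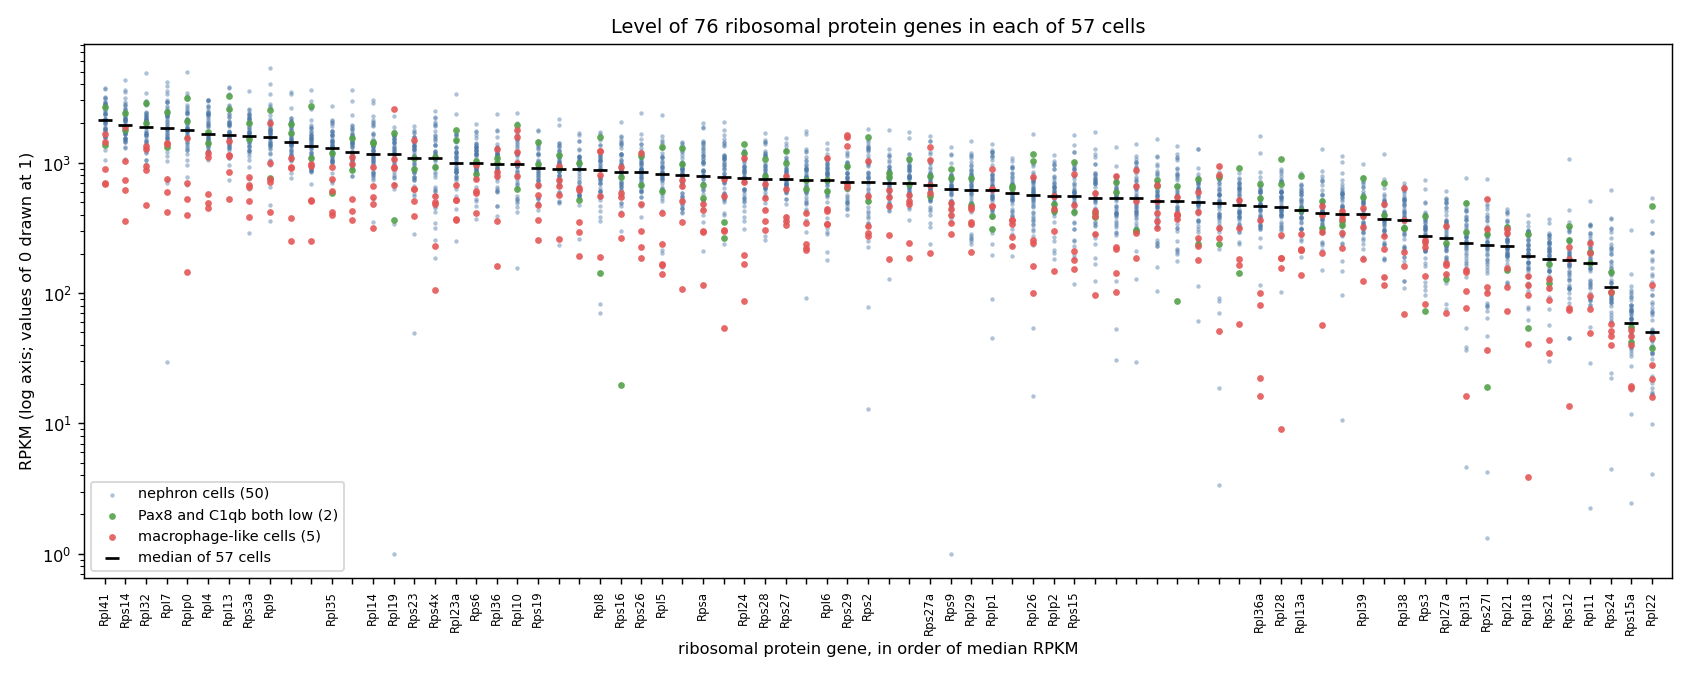
Each column is 1 of 76 ribosomal protein genes in order of median, named where the text names the gene (the other 2 members are not drawn), and each point is its RPKM in 1 of the 57 cells on a log axis; black bars are medians, and values of 0 are drawn at 1. Medians run from 2111 for Rpl41 to 50.3 for Rpl22, and macrophage-like cells mostly lie in the lower part of the columns.

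The gene model that the authors divided by bears on the low end of this order. For 30 members a model length could be recovered from the values, which were multiples of 0.01 read at that length, and 47.0% of these members' values lay within 0.02 of a whole read. These lengths were 0.607 to 1.44 times the median length of the reference transcripts of the gene. Rps15a came out at 5134 bases against 5179, Rpl22 at 2040 against 2051 and Rps3 at 2119 against 1908. Farthest from the reference were Rps25, at 777 against 1280, and Rps21, at 569 against 394. Some of these genes also have far shorter annotated coding transcripts. Whether those are complete, and which of them the cells make, was not tested. The medians given over a shorter transcript keep every read counted over the model, as if all of them came from that transcript. The shortest such transcript of at least 300 bases was 629 bases for Rps15a, over which its median would be 484 instead of 59.3 RPKM. For Rpl22 it was 474 bases, with a median of 216 instead of 50.3 RPKM, and for Rplp2 421 bases, with 1429 instead of 557 RPKM. The model was 4.33 times as long as that transcript for Rps3, 3.67 for Rpl13a and 3.58 for Rpl31, and 1.01, 1.00 and 1.01 times for Rpl8, Rpl24 and Rpl36a. On the RPKM scale the place of such members in the order depends on the transcript taken, and for the remaining members no length was recovered.

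By role, the P-stalk was uneven on this per-length scale. Rplp0, the stalk base, had a median of 1776 RPKM, while its partners Rplp1 and Rplp2 had medians of 612 and 557; over its shortest coding transcript Rplp2 would be at 1429, so its distance from Rplp0 rests on the transcript taken. In the 5S particle Rpl5 had a median of 813 and Rpl11 of 169 RPKM. Rps27a, which is made as a fusion with ubiquitin, had a median of 669 RPKM. Fau, which encodes a ubiquitin-like protein joined to Rps30 and has no such symbol, had a median of 470 RPKM. The medians of the median RPKM were 598 for the large and 750 for the small subunit.

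Paralogs outside the canonical set were lower than their partners, with 1 exception. Rpl22l1 had a median of 205 RPKM and exceeded Rpl22 in 46 of the 57 cells. Over its shortest coding transcript the median of Rpl22 would be 216 RPKM, so the order of this pair also rests on the transcript taken. Rps27l, a target of p53 in other settings, exceeded Rps27 (median 746 RPKM) in 1 cell. Rpl36al had a median of 132 RPKM and exceeded Rpl36a (462) in 6 cells, and Rpl7l1 had a median of 30.8 beside 1829 for Rpl7. Rps4y2 had a median of 0 and reached RPKM 1 in 18 cells. Across the 57 cells Spearman rho was 0.216 for Rpl22 and Rpl22l1, 0.115 for Rps27 and Rps27l, -0.069 for Rpl36a and Rpl36al, and -0.355 for Rpl7 and Rpl7l1.

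The members held a median of 14.6% of a cell's summed RPKM, with an SD of 3.41 percentage points over the 57 cells. The share ran from 6.13% in cell 25 to 26.2% in cell 37. Shares under 10% were found in 5 cells, of which 4 were macrophage-like and the other was cell 30 at 9.79%. Only cells 7 and 37 reached 20% or more, at 24.7% and 26.2%, and cell 37 held the highest value of 30 members. These cells had 3692 and 3053 detected genes, against a median of 4307. Over the 57 cells, which share a pool and a chip run, rho of the share with the number of detected genes was 0.009 and with reads 0.106.

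The balance of the subunits varied less than their sum. Summed RPKM of the 46 large over the 32 small subunit members had a median of 1.45 and ran from 1.14 to 1.75, and its rho with the share was -0.047. Cells also kept the order of the members. Over the 78 members, rho of a cell with the median profile had a median of 0.893, and between pairs of cells a median of 0.778 with a lowest value of 0.200. The cell least like the median profile was cell 30, at 0.512, which also held the lowest value of 18 members with 0.475 M reads. The macrophage-like cells had a median of 0.751 and the nephron cells of 0.898, computed with the median profile to which the 50 nephron cells contribute most.

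**Figure D2:**
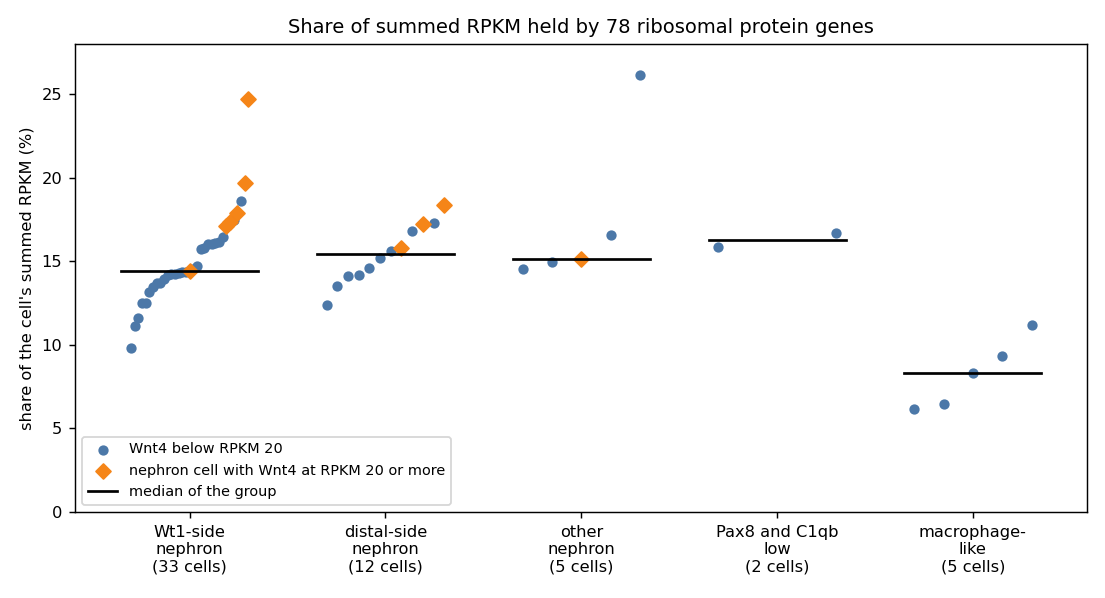
Each point is 1 cell, the vertical axis gives the percent of its summed RPKM held by the 78 ribosomal protein genes, black bars are group medians, and diamonds are nephron cells with Wnt4 at RPKM 20 or more. Cells 37 and 7 stand at 26.2% and 24.7%, and the 5 macrophage-like cells lie between 6.13% and 11.2%.

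Cell-to-cell variation of the members was low for their level. The coefficient of variation (CV, SD over mean) had a median of 0.424, from 0.314 for Rpl41 to 1.15 for Rpl22. The 1135 other genes with a mean RPKM of at least 64.2, the lowest mean of a member, had a median CV of 1.06, and 1.23% of them were at or below the member median. Counting of reads alone gives CVs of about 0.0346 at the median and 0.0940 at most, so the spread exceeded counting error for each of the 78. These rest on a median of 85.6 to 4588 estimated reads per member and cell. The 4588 is for Rps20 at a reference length of 3706 bases, longer than the listed span of the gene, and is too high. The next highest was 4001 for Rpl4. Amplification of the cDNA adds a spread that these files do not measure.

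Against the trend of dispersion on mean level over 11084 genes, 62 members lay below and 16 above, where 50.7% of all fitted genes lay above. The median distance, as log10 of the squared CV, was -0.167 for members, 0.005 for all genes and 0.024 for the other genes of the same level. Among the farthest above were Rpl9 (0.281), Rplp0 (0.195), Rpl7 (0.188) and Rps4x (0.163), all with medians above 1000 RPKM. Farthest below were Rpl21 (-0.719), Rps21 (-0.685), Rps15a (-0.659), Rpl18 (-0.614) and Rpl13a (-0.494), all with medians under 500 RPKM. Without cell 30 the median was -0.193, with 18 members above.

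Rpl9 shows a wide member, from 359 to 5297 RPKM around a median of 1580, with a CV of 0.503. Rpl21 shows a narrow one, from 72.8 to 438 RPKM around 228, with a CV of 0.345. Rpl22 had the highest CV but lay on the trend for its level, at -0.026. Among genes outside the members, Eef1a1, which delivers tRNA to the ribosome, had a median of 5937 RPKM and lay 0.508 above the trend, with a CV of 0.391.

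**Figure D3:**
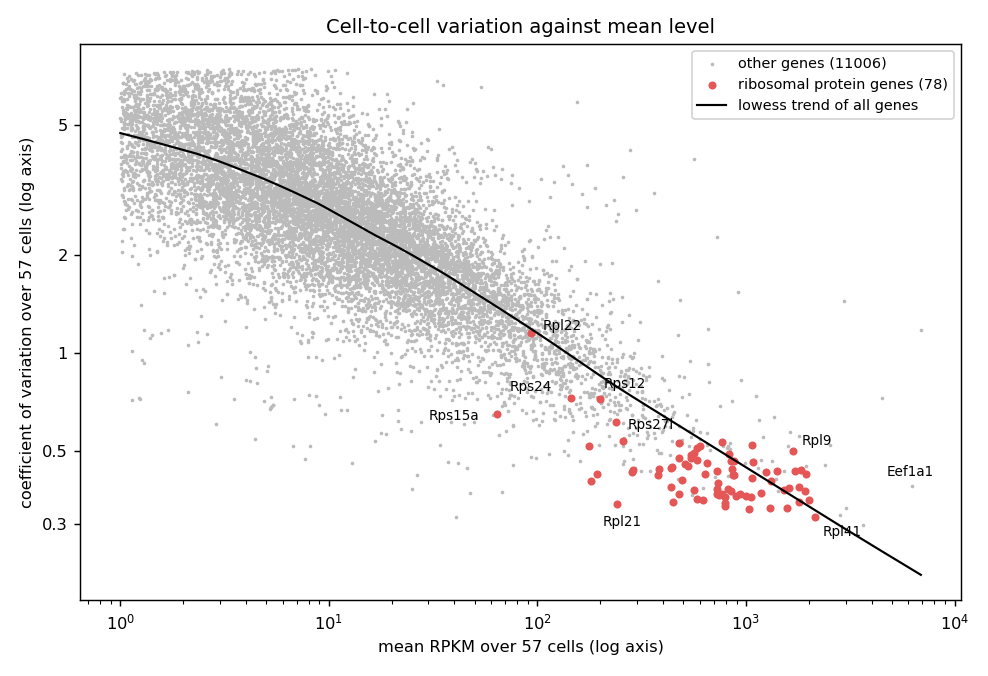
Each point is a gene with a mean RPKM of 1 or more, with its mean over the 57 cells on the horizontal and its CV on the vertical axis, both log axes; red points are the 78 ribosomal protein genes and the line is a lowess trend over all genes. Of the red points, 62 lie below the line and 16 above it.

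The members varied together from cell to cell. All 78 members were among the 3390 genes whose mean RPKM reached 1 and that 29 cells or more detected, and their 3003 pairs had a median Spearman rho of 0.304. Other pairs had a median of 0.038 and pairs of a member with another gene 0.021. Of member pairs 97.5% were above 0, against 60.3% of the other pairs. The median was 0.288 within the large subunit, 0.329 within the small and 0.307 between them, so pairs across subunits were correlated like pairs within them. Held at the number of detected genes, the member median was 0.309. These correlations are over cells that share the denominator of RPKM and a pool, and in the 50 nephron cells alone the median was 0.248.

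Rps26, a small subunit protein at the mRNA exit, had the highest mean rho with the other members, at 0.434, followed by Rpl14 at 0.424 and Rpl41 at 0.412. Among the highest pairs were Rpl14 with Rps26 (0.689), Rpl41 with Rps26 (0.683), Rpl23a with Rps28 (0.672) and Rps19 with Rps24 (0.662). In the nephron cells alone Rpl14 with Rps26 still had a rho of 0.657. Rps26 ranged from 184 to 2402 RPKM around 843, and Rpl14 from 315 to 3020 around 1159, each lowest in a macrophage-like cell and highest in cell 37 or 7.

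Rps27l and Rpl10 stood at the other end. Rps27l had a mean rho of 0.046 with the other members and ranged from 1.32 to 752 RPKM. Rpl10, an X-linked protein that joins the large subunit late, had a mean rho of 0.076 and ranged from 154 to 2389 RPKM. The lowest pairs were Rpl27a with Rpl10 (-0.280), Rps6 with Rps27l (-0.252), Rps27l with Rpl39 (-0.200), Rps2 with Rpl10 (-0.191) and Rps3 with Rpl10 (-0.159). So 3 of these 5 pairs held Rpl10 and the other 2 held Rps27l. Both genes were detected in all 57 cells, with medians of 972 RPKM for Rpl10 and 233 for Rps27l.

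**Figure D4:**
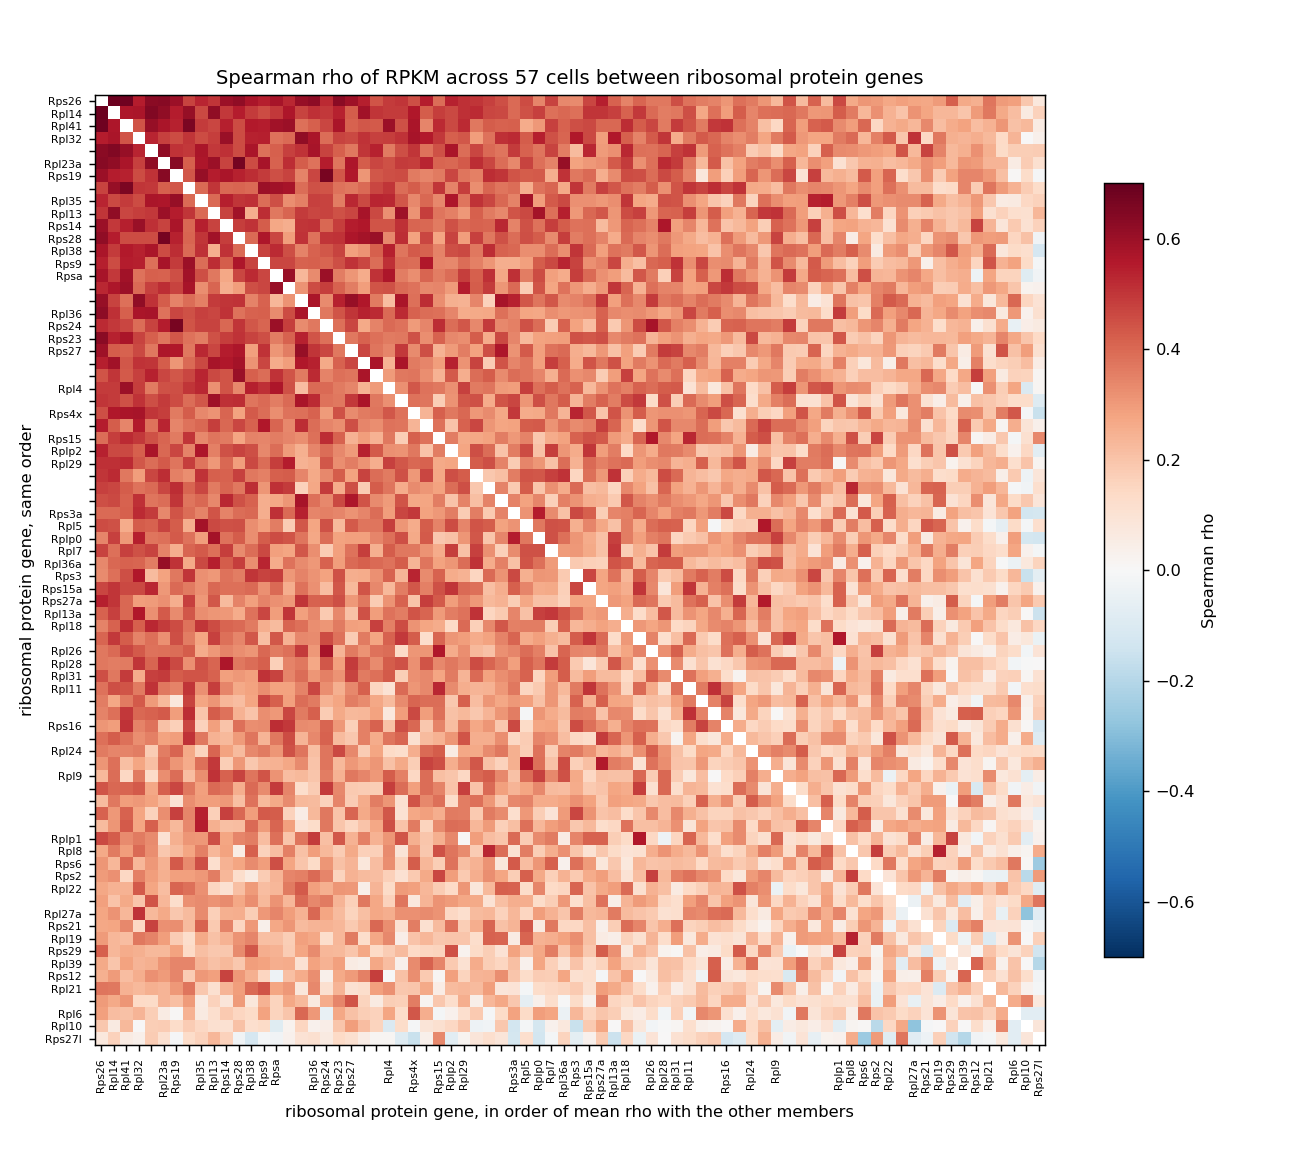
Both axes list 76 ribosomal protein genes in order of their mean rho with the other members, named where the text names the gene (the other 2 members are not drawn), and each square gives Spearman rho of RPKM across the 57 cells. Squares are mostly red from Rps26 (mean rho 0.434) at the top, and blue squares gather in the columns of Rpl10 and Rps27l at the end.

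The other genes most like the members were sought among the other genes of that filter by rho with the mean log2(RPKM + 1) of the 78 over the 57 cells. Eef1b2, which reloads Eef1a1, was first at 0.697, and Eef1a1 itself had 0.576. Lsm7, of an RNA-binding ring, had 0.570 and Myg1, an exonuclease, 0.550. The other 6 of the first 10 were rows of near copies: Gm13841 (0.636), C330021F23Rik (0.608), Gm13611 (0.582), Gm5148 (0.566), Gm8580 (0.545) and Gm10136 (0.540). The most negative was Sdc4, a cell surface proteoglycan, at -0.50. H2-Q4 (-0.454), Arhgdia (-0.435), Ctsd (-0.421) and Cyba (-0.416) came next, followed by Egr1, an immediate early gene, at -0.414. These negative genes are named here after their values were seen. The 57 cells include the macrophage-like cells, and their part in these values was not tested.

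Near copies were counted by aligning a transcript of each member to the GENCODE M21 transcripts of GRCm38, requiring 95% identity over at least 250 bases or 0.5 of the transcript. A copy was found for 73 members, with a median of 5.5 per member and 60 for Rpl21, and none for 5 members, among them Rpl39, Rpl8, Rps27l and Rps29. Copy rows, 23 in all, were present for 14 members. Of these 23 rows, 13 followed their member at a rho of 0.5 or more, for 7 members. The 23 include Uimc1, Ciapin1, Nphs1 and Med21, matched through a retained-intron transcript, and none of these followed. Among the rows that did, Gm5148, C330021F23Rik and Wdr89 are annotated as protein-coding and Rps2-ps10 as a processed transcript. So 13 of 23 is not a rate among pseudogene copies alone. The 60-base stretches printed here, of build GRCm38, are those of the coding part of each match in which member and copy differ most. For Rpl36, Rpl26 and Rpl21 they therefore understate the agreement. Over the whole match 5 of 318 bases differed for Rpl36, 5 of 435 for Rpl26 and 10 of 483 for Rpl21. Capitals mark bases that differ, and Rps23 and Gm5148 have none in the stretch.
Rps23, chr13:90923587-90923646, plus strand: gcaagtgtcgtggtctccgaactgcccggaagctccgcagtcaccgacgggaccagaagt
Gm5148, chr3:37714744-37714803, plus strand: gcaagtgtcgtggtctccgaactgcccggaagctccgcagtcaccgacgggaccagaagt
Rpl36, chr17:56613613-56613672, plus strand: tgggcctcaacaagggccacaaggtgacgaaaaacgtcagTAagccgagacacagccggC
Gm13611, chr2:32271870-32271929, plus strand: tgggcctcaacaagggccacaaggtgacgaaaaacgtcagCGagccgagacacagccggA
Rpl26, chr11:68903238-68903297, plus strand: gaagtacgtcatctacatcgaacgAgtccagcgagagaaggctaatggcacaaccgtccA
Gm10136, chr19:29003556-29003615, minus strand: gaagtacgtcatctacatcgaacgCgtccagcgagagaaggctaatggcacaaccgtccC
Rpl21, chr5:146835599-146835658, plus strand: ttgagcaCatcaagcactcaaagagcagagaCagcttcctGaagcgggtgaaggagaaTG
Gm9104, chr17:45466065-45466124, plus strand: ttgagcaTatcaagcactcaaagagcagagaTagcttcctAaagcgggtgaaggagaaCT

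Gm5148 matched Rps23 at 100% over 427 bases, had a median of 49.2 beside 1085 RPKM for Rps23, and had a rho of 0.968 with it. C330021F23Rik also matched Rps23, at 99.5% over 418 bases, with a median of 7.25 RPKM and a rho of 0.859. Gm13611 matched Rpl36 at 98.4% and had a rho of 0.946, with medians of 66.7 and 980 RPKM. These rhos are far above the highest of any pair of members, 0.689.

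Rpl29 was followed by Gm8580 (0.935), Gm13841 (0.922) and Gm8210 (0.886), Rpl21 by Gm9104 (0.887), and Rpl26 by Gm10136 (0.773), whose median of 136 RPKM stood beside 562 for Rpl26. Rplp2 was followed by Wdr89 (0.672) and Rps2 by Rps2-ps10 (0.668), Gm7432 (0.559), Gm6311 (0.538) and Gm6139 (0.511). These rows were low, with medians of 4.35 RPKM for Wdr89 and 6.48 for Rps2-ps10. Gm7432, Gm6311 and Gm6139 had medians of 1.09, 1.09 and 1.05 RPKM, at the detection threshold, and reached RPKM 1 in 33, 33 and 31 cells. Whether reads were split between member and copy, or the copies were transcribed, was not tested, and the values of these 7 members are uncertain to that extent. The copy rows were small in sum: with them the median share of the members was 14.6%, as without them, and the median rho of the members outside the 7 was 0.305.

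The macrophage-like cells had less ribosomal protein RNA per summed RPKM than the nephron cells. Their shares were 6.13% to 11.2% with a median of 8.33%, against a median of 14.8% in nephron cells, and 4 of the 5 lay below every nephron cell. Of the 78 members, 74 had a lower mean in the macrophage-like cells, with a median log2 ratio of -0.84. A member was called lower or higher at a 2-fold ratio of means: 28 were lower, that is 35.9% of the members, and 0 higher. Over all 11084 genes 58.4% were called lower and 18.2% higher, and over the 1213 genes at or above the lowest member's mean 39.3% were lower and 11.4% higher. The median log2 ratio of the other 1135 such genes was -0.55. So the share of members called lower was near that of these 1213 genes, which include the members. They are called genes at the members' level below, although most members lie well above the lowest member's mean. These cells had a median of 1.10 M reads and 3489 detected genes, against 1.50 M and 4366 in nephron cells, and the part of depth in the result was not tested. Fewer transcripts per cell and a larger share taken by other transcripts cannot be told apart on this scale.

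Rpl36a, an X-linked large subunit protein, had the lowest ratio. Its RPKM was 16.1, 22.2, 101, 81.2 and 360 in cells 1, 25, 35, 46 and 58, against a nephron median of 467 with a range of 116 to 1605. The means were 116 ± 141 (SD, n = 5 cells) and 505 ± 236 (n = 50), a log2 ratio of -2.12. Only cell 58 lay above the lowest nephron cell.

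Rpl5, of the 5S particle, had 166, 413, 139, 163 and 237 RPKM in the same 5 cells, against a nephron median of 826, with a log2 ratio of -1.97. Rpl28, present in mammalian but not all eukaryotic ribosomes, had 185, 154, 9.03, 185 and 278, against a median of 485, with a log2 ratio of -1.66. Rps4x, the X-linked small subunit protein, had 105, 229, 478, 558 and 498 RPKM against 1098, with a log2 ratio of -1.61. Each of the 5 cells lay below the nephron median for these 3 genes, and the ranges overlapped.

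Rplp0 had 144, 527, 1539, 398 and 702 RPKM in cells 1, 25, 35, 46 and 58, against a nephron median of 1799, with a log2 ratio of -1.54. Its stalk partner Rplp1 had 632, 465, 461, 629 and 887 RPKM against 622, with a log2 ratio of -0.12, and Rplp2 had -0.56. Thus 1 of the 3 P-stalk genes was called lower, as was 1 of the 2 genes of the 5S particle, where Rpl11 had a log2 ratio of -0.44. Of the other large subunit members 17 of 41 were called lower, and of the small subunit members 9 of 30. These counts stand beside 58.4% of all genes and 39.3% of genes at the members' level called lower, and a difference between roles was not tested.

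Only 4 members had a higher mean in the macrophage-like cells, and none by 2-fold. Rps29, a zinc-binding small subunit protein, had 647, 685, 1347, 1574 and 1622 RPKM, with means of 1175 ± 476 (n = 5) and 754 ± 226 (n = 50) and a log2 ratio of 0.64. Rpl10 had a log2 ratio of 0.29, with 4 of the 5 cells above the nephron median. Rps27a (0.07) and Rpl19 (0.05) were near 0 and turned negative when each cell was rescaled to the same sum. For 40 members all 5 cells lay below the nephron median, and for none of the 78 did the groups fail to overlap. The same counts over other genes are not given here, so neither is a result about the members in particular. Without cell 35 the count called lower was 21, and without cell 46, which had the highest share of the 5, it was 40.

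Within the nephron cells the members differed less between groups. All 4 comparisons there reuse the same 50 cells, and in each 0 of the 78 members were called higher or lower. The groups also overlapped for every member, but the share of other genes with overlap is not given here. Groups were set at RPKM 20 of a marker gene. For Wt1, Sox9, Pou3f3, Ccnb1, Egr1 and Wnt4 the numbers of nephron cells within 2-fold of that threshold were 5, 4, 3, 2, 2 and 5.

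The 33 cells with Wt1, a proximal and podocyte transcription factor, and without the distal genes Sox9 and Pou3f3 were set against 12 distal-side cells. The median log2 ratio of the members was -0.06, with 31 above and 47 below 0. Over all genes 32.7% were called higher and 18.1% lower, and at the members' level 7.34% and 3.22%. Rps15 had the lowest log2 ratio, -0.53, with means of 524 ± 239 and 758 ± 373 RPKM, and Rps12 the highest, 0.36. The highest Rps12 value, 1067 RPKM, was in cell 30, a Wt1-side cell, and without that cell its log2 ratio was 0.18. The authors' deposited table of classes holds 787 genes in 28 cells, against 12087 genes in the full one. Of the 78 members 3 appear in it, so their number is not a result about the members in particular. Each had a signed fold toward the distal class: Rps15 at -1.38, Rps16 at -1.29 and Rpl29 at -1.22. These are folds and not log2 ratios.

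The 24 cells with Ccnb1, a cyclin of mitotic entry, at RPKM 20 or more had a median share of 14.5% and the other 26 had 15.3%. The median log2 ratio was -0.07, with 26 members above and 52 below 0; over all genes 20.1% were called higher and 22.1% lower, and at the members' level 3.38% and 3.71%. Rpl22 had the lowest log2 ratio, -0.91, with means of 63.3 ± 43.4 and 119 ± 128 RPKM and medians of 50.7 and 57.1, and cell 37 with 535 RPKM was among the Ccnb1-low cells. The median ratio changed sign without cells 7 and 37, to 0.04. The Ccnb1-high cells had a median of 4757 detected genes and the others 4067.

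The 18 cells with Egr1, an immediate early gene that also answers to dissociation, at RPKM 20 or more had a median share of 14.2%, against 15.9% in the other 32. Of the members 72 had the lower mean there, with a median log2 ratio of -0.22, beside -0.09 for other genes of that level. Over all genes 20.1% were called higher and 21.4% lower, and at the members' level 2.8% and 2.64%. Rps15, a small subunit protein, had the lowest log2 ratio, -0.62, with means of 462 ± 179 and 710 ± 333 RPKM, and 17 of the 18 cells lay below the median of the others. Rps27l had the highest, 0.17. Of 9 stromal markers 5 had at least 2-fold higher and 2 at least 2-fold lower means in the Egr1-high cells. Their summed RPKM, to which Aldh1a2 contributed most, had a median of 55.1 in the Egr1-high cells (0.232 to 498) and of 150 in the others (0.161 to 1782). The part of these genes in the result was not tested.

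The 10 cells with Wnt4, the signal that turns cap mesenchyme epithelial, at RPKM 20 or more had the higher shares. Their median was 17.3% against 14.5% in the other 40, and 9 of the 10 lay above the median of the others. Of the members 75 had the higher mean in them, with a median log2 ratio of 0.30, beside -0.04 for other genes of the same level. Over all genes 15.6% were called higher and 34.1% lower, and at the members' level 2.39% and 6.51%. Of the Wnt4-expressing cells 6 were Wt1-side and 3 distal-side, 7 were Ccnb1-high and 2 Egr1-high. They had a median of 1.54 M reads, against 1.49 M in the others. Of the 9 stromal markers 5 were at least 2-fold lower in them and 2 at least 2-fold higher. Dcn, Col1a1 and Pdgfrb were listed at 0 in all 10 cells, while the summed RPKM of the markers had medians of 154 and 114, and the part of these genes in the result was not tested.

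Rps24 had the highest log2 ratio there, 0.89. It ranged from 71.9 to 614 RPKM around 204 in the 10 cells, and from 4.46 to 376 around 106 in the other 40, with means of 244 ± 157 and 132 ± 80.7. Rpl38, which is needed for the translation of some Hox messages in the embryo, had means of 523 ± 113 and 354 ± 146 RPKM, a log2 ratio of 0.56. The P-stalk genes had log2 ratios of 0.32 to 0.39, Rpl5 and Rpl11 of 0.35 and 0.37, and Rps27a of 0.33. Only Rps6, Rpl6 and Rps27l were below 0, at -0.12, -0.11 and -0.05. Without cell 7, which had the highest Rps24 value, the median log2 ratio of the members was 0.23 and that of Rps24 was 0.62.

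**Figure D5:**
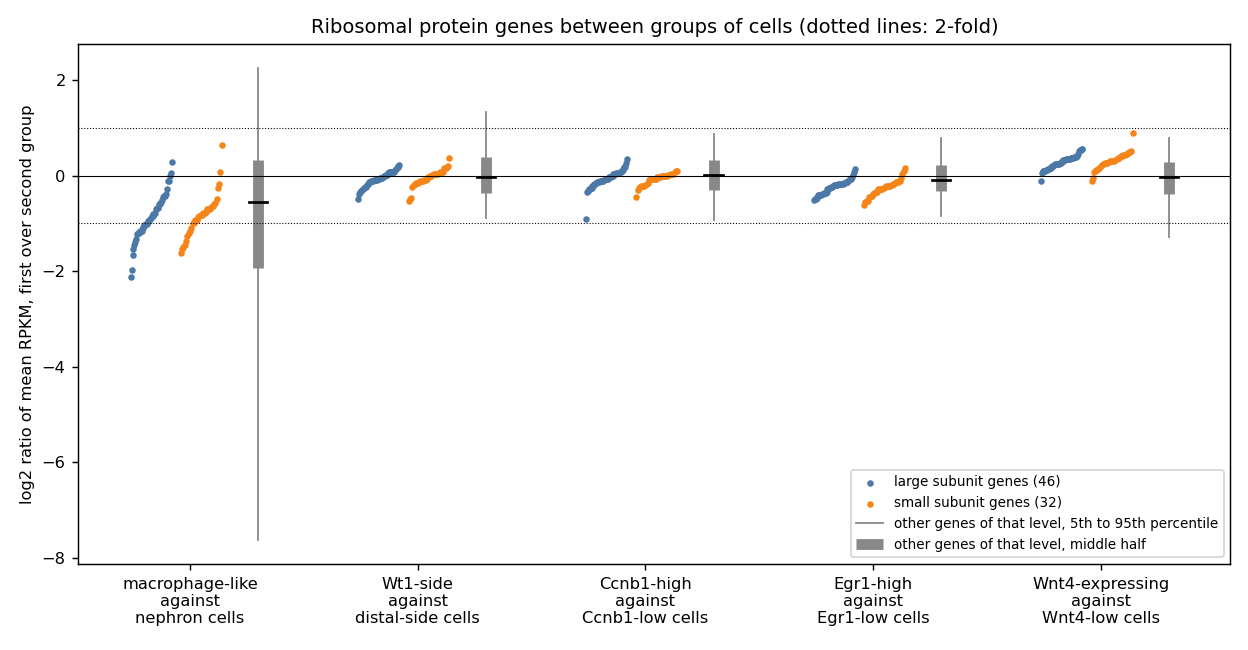
Each point is a ribosomal protein gene, with the log2 ratio of its mean RPKM between the groups of cells named below it; grey bars and lines give the middle part and the 5th to 95th percentile of the other 1135 genes at that level, and dotted lines mark 2-fold. Medians of the members are -0.84, -0.06, -0.07, -0.22 and 0.30 from left to right, and members pass 2-fold only in the macrophage-like cells.

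Other genes of translation were taken from lists chosen by function. Of 26 elongation factors and other genes with oligopyrimidine tracts 25 had a row, 14 were detected in all cells, and their median rho with the members was 0.153. Leading by median were Eef1a1, Npm1 (1091 RPKM), a nucleolar chaperone, Gnb2l1 (782), the small subunit scaffold also called Rack1, and Eef1g (653). Of the 25 genes 13 were called lower in the macrophage-like cells, with Eef2, the translocase, at a log2 ratio of -2.21 and Eef1a1 at -1.87, and 0 were called higher, where 58.4% of all genes were lower and 18.2% higher, and 39.3% and 11.4% of genes at the members' level. In the Wnt4-expressing cells Eef1b2 had a log2 ratio of 0.69.

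The 21 initiation factors had a median rho of 0.057 with the members, and 6 were called lower and 0 higher in the macrophage-like cells. The 78 ribosome biogenesis genes with a row had 0.052, and 41 were lower and 8 higher, beside 58.4% and 18.2% of all genes. The 75 mitochondrial ribosomal proteins, which serve translation in mitochondria, had a median rho of 0.055 with the members and 0.080 among themselves, a median CV of 1.47, and none was detected in all 57 cells. Of them 41 were lower and 8 higher in the macrophage-like cells, no larger a share of the list in either direction than among all genes. At a median level of 4.81 RPKM for the mitochondrial and 2.01 for the biogenesis genes few reads stand behind each value, so the correlations of both lists are not comparable with those of the cytosolic set. The 15 regulators of ribosome gene expression were lower still, with a median level of 0.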

How the data were processed

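The 57 cells, each a sample of its own from 1 pool, were profiled by single-cell RNA sequencing. The authors deposited RPKM values of 12087 genes in 57 cells, not logged, per the file headers; a row was present where RPKM exceeded 3 in some cells, which the authors give as a count of cells per gene. A smaller deposited table holds the authors' signed fold between classes, treated as a score, per the file headers. Build mm9, TopHat 1.4.1 and DESeq are listed, without their roles, in the submitters' processing notes; aligner settings and the handling of reads with several matches are not given in the sources used here. SMARTer and Nextera XT libraries, per the labels' protocols, carry no molecular identifiers and no strand.

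The members and lists, and the thresholds behind the groups of cells, were chosen with earlier results of these data known. Named members are the 10 highest and 10 lowest by median, the highest and lowest of each role, every member of the P-stalk, 5S particle, ubiquitin fusion and paralog lists, the 5 largest and smallest in dispersion, the 5 highest and lowest pairs, and up to 5 past 2-fold in each direction per comparison; members named outside this rule (such as Rps15, Rps12, Rpl38, Rps29 or Rpl10) were chosen after their values were seen. Some of these genes are left out of the text. Means, SDs and medians were taken over cells. Dispersion was log10 of the squared CV minus a lowess trend (span 0.3) on log10 mean over genes with a mean RPKM of 1 or more; co-variation was Spearman's rho. Groups were compared by the ratio of mean RPKM, called at 2-fold, with no p-value since cells of 1 pool are not replicates. The marker rules were: nephron, Pax8 at 5 or more and C1qb under 500; groups within them at RPKM 20. Depth was recovered from the steps of low values, and read numbers from it are estimates that cover counting error only. The statistics were tested on simulated data. Copies were aligned with blastn 2.17.0, and values computed in Python 3.11.15 with numpy 2.4.6, scipy 1.17.1 and statsmodels 0.14.6. Alternatives covered the scaling, filters, thresholds, lowess span, correlation measure and left-out cells.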

Additional observations from a re-analysis of the deposited data

Results flagged for a closer look

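Of 11 values examined in the groups of 5 and 10 cells, 2 had a cell set apart from the others of its group by a gap that is large for the range of the group; in groups without any unusual cell, chance alone gives such a gap in about 1 of 20. Rpl36a reached 360 RPKM in cell 58, against 16.1 to 101 in the other macrophage-like cells, and the gap was 0.754 of the range. Without cell 58 the log2 ratio of Rpl36a was -3.20 instead of -2.12. The share of the ribosomal protein genes was 24.7% in cell 7, the highest of the 10 Wnt4-expressing cells, and the gap was 0.487 of the range. Without cell 7 the median log2 ratio of the members between Wnt4-expressing and Wnt4-low cells was 0.23 instead of 0.30.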

How the results depend on the processing

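Of the summary values under other settings, 185 were labelled the same and 1 moved. A count was the same when equal to the reported one or within a set fold of it. Any other value was the same when it stayed within the SD over cells or over members, whatever its sign. The value that moved was the median level of the members. With every cell rescaled to the same sum, as in TPM, it was 1650 instead of 713 RPKM, since the rows of a cell sum to less in the deposited table. The count of members called lower in the macrophage-like cells was 21 to 40 when each of the 5 cells was left out, with median log2 ratios of -1.01 to -0.74, and 33 to 36 with medians, rescaling or a log scale; the count called higher was 0 in all of these. The median log2 ratio in the Wnt4-expressing cells was 0.23 to 0.33 when each of the 10 cells was left out. The median ratio between Ccnb1 groups, near 0, changed sign on the log scale and without cells 7 and 37. The median rho of the members was 0.248 to 0.355, and 13 to 18 members lay above the dispersion trend. Settings that leave out cells 7 and 37, cell 30, single Wnt4-expressing cells or members with copy rows, and the one adding the copy rows, were chosen after seeing the data. No paired analysis was possible because the cells form 1 group from 1 pool. Depth limits the lowest values: an estimated 1 read stood behind Rps27l in its lowest cell and 3 behind Rpl31.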
